A study of Rattus norvegicus with 22 samples.

Results

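MHC class II genes were followed in the livers of 22 rats, 1 array per rat. They were found as the probes that were not controls and whose gene name on the array, with case ignored, was Cd74, RT1-Ba, RT1-Bb, RT1-Da, RT1-Db1, RT1-DMa, RT1-DMb or Ciita. All 8 genes were on the array, with 10 probes among 30367, and the array carried 26276 gene names. The animals were male Sprague–Dawley rats, an outbred stock, 8 weeks old when feeding began and kept in individual cages. Rats of the control groups ate a semi-synthetic diet for 3 months (CD 3, 5 rats) or 14 months (CD 14, 6 rats). Rats fed with BASE-diet for 3 months (BD 3, 5 rats) or 14 months (BD 14, 6 rats) ate a semi-synthetic diet in which 6% salmon fat took the place of part of the lard, with other changes in oil and starch, and with 8% of a linden flower extract, 8% pumpkin puree and 1% of probiotic bacteria. RNA of each rat was labelled with Cy5 and put on the array against Cy3-labelled RNA of 10-week-old healthy rats from outside the feeding experiment, the common reference. The study's methods put control rats in Cy3 and rats fed with BASE-diet in Cy5, which the labels do not. The sample labels were followed here, and the sign of every ratio and difference rests on them. The design asks whether BASE-diet changed gene expression in the liver at either time.

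MHC class II molecules present peptides from outside the cell to CD4+ T cells. Each is a pair of an alpha and a beta chain, which in the rat are encoded by RT1-Ba and RT1-Bb for the RT1-B molecule and by RT1-Da and RT1-Db1 for the RT1-D molecule. Cd74, the invariant chain, escorts the new pair to the endosome, and RT1-DMa and RT1-DMb form the DM molecule, which exchanges the remnant of Cd74 for a peptide. Ciita is the coactivator that switches the whole set on. It does not bind DNA itself but docks on factors that sit on the X box and the Y box upstream of these genes. In the liver the genes are known from Kupffer cells, dendritic cells and B cells, and hepatocytes normally make very little. Class II chains are among the most polymorphic genes of the rat.

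The upstream sequences of the members were read from RefSeq promoters of the rat build GRCr8 and are shown because the class II genes moved together across rats, as described later. Promoters were found for 6 of the 8 genes. RT1-DMb and Ciita had no entry. The letters GNNACNNNTG were searched for the X box and TGATTGG for the Y box, on both strands of the 250 bases before the start. The X letters were chosen with these promoters in view, so their presence in them is a description. The 4 stretches below hold the X letters followed by the Y letters, in capitals, with 10 bases on either side.

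RT1-Da, chr20:4515323-4515380, plus strand: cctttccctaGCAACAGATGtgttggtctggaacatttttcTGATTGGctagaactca

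RT1-Db1, chr20:4560228-4560284, minus strand: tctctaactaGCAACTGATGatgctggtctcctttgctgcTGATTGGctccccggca

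RT1-Bb, chr20:4604165-4604221, minus strand: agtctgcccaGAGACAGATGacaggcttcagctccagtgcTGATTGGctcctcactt

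RT1-DMa, chr20:4712385-4712442, minus strand: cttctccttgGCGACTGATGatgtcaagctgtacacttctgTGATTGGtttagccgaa

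RT1-Ba held the Y letters alone in this order, 45 bases before its start, with the X letters on the other strand. This concerns the letters searched, and an X box of other letters or spacing was not searched for. The stretch at chr20:4576965-4577028, plus strand, was:

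RT1-Ba: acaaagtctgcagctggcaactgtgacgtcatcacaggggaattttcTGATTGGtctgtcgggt

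In the 4 pairs, 20 or 21 bases lay between the motifs, and the motifs did not overlap. Of all 33469 promoters, 34.0% held the X letters on either strand and 6.42% held the Y letters. The pair in this order and with 10 to 30 bases between stood on the gene's own strand in 18 promoters, or 0.0538%. Because the X letters were chosen with the members' promoters in view, this share is no test of the members. A link between these letters and the class II values was not tested. Cd74 held the X letters but not these Y letters in the window.

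Most probes of the class II genes gave a clear signal. A spot counted as detected when the scanner software called it well above background, and probes entered the test if, in some group, each array had 0.5 or more of their spots detected in the rat channel. This left 19434 probes, among them 8 probes for 7 class II genes. Where a gene had several probes, the one with the highest mean Cy5 signal stood for it. Cd74, RT1-Bb, RT1-Da, RT1-Db1, RT1-DMa and RT1-DMb were detected on all 22 arrays. Ciita, a regulator with low signal, was detected on 20 arrays and passed through the other groups, since it was not detected on 2 arrays of CD 3. RT1-Ba was not tested, because its only probe was detected on 4 of 22 arrays.

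The array's annotation gives the position of each probe on the rat build rn4. Cd74 was measured at chr18:56765468-56765527 and Ciita at chr10:5087176-5087235. The others lay on chromosome 20, RT1-Da at 4641104-4641163, RT1-Ba at 4700973-4701032, RT1-DMb at 4830313-4830372 and RT1-DMa at 4844372-4844431. RT1-Db1 had probes at 4672665-4672724 and 4671516-4671575, and RT1-Bb at 4732187-4732246 and 4730533-4730583. The exon or UTR of each probe was not assigned here, since no annotation of that build was used.

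Before the groups are compared, 4 arrays need to be set apart, because the Cy3 channel did not behave there as a constant reference. After quantile normalization of each channel, Cy3 signal of the class II genes stood well above the remaining 18 arrays on CD 3 rat 3, BD 3 rat 2, CD 14 rat 6 and BD 14 rat 2, 1 array of each group. Their median rise over the 7 genes tested was 1.76, 2.20, 2.80 and 1.92 on the log2 scale against the median of the 18 arrays. The arrays were marked by Cd74 itself, as those whose Cy3 signal of its probe exceeded the median by more than 1.5. This signal was 13.66, 13.89, 14.36 and 13.50 on these arrays, and the 18 others spanned 1.03. All 7 genes were above the highest of the 18 arrays on CD 3 rat 3, BD 3 rat 2 and BD 14 rat 2, and 6 of 7 were on CD 14 rat 6. The Cy5 signal of the rats did not exceed every one of the 18 arrays for any gene on CD 3 rat 3, BD 3 rat 2 and BD 14 rat 2, with median differences of 0.00, 0.39 and 0.41. On CD 14 rat 6 the rat's own signal was raised as well, by a median of 2.94, and all 7 genes were above every one of the 18 arrays.

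**Figure D1:**
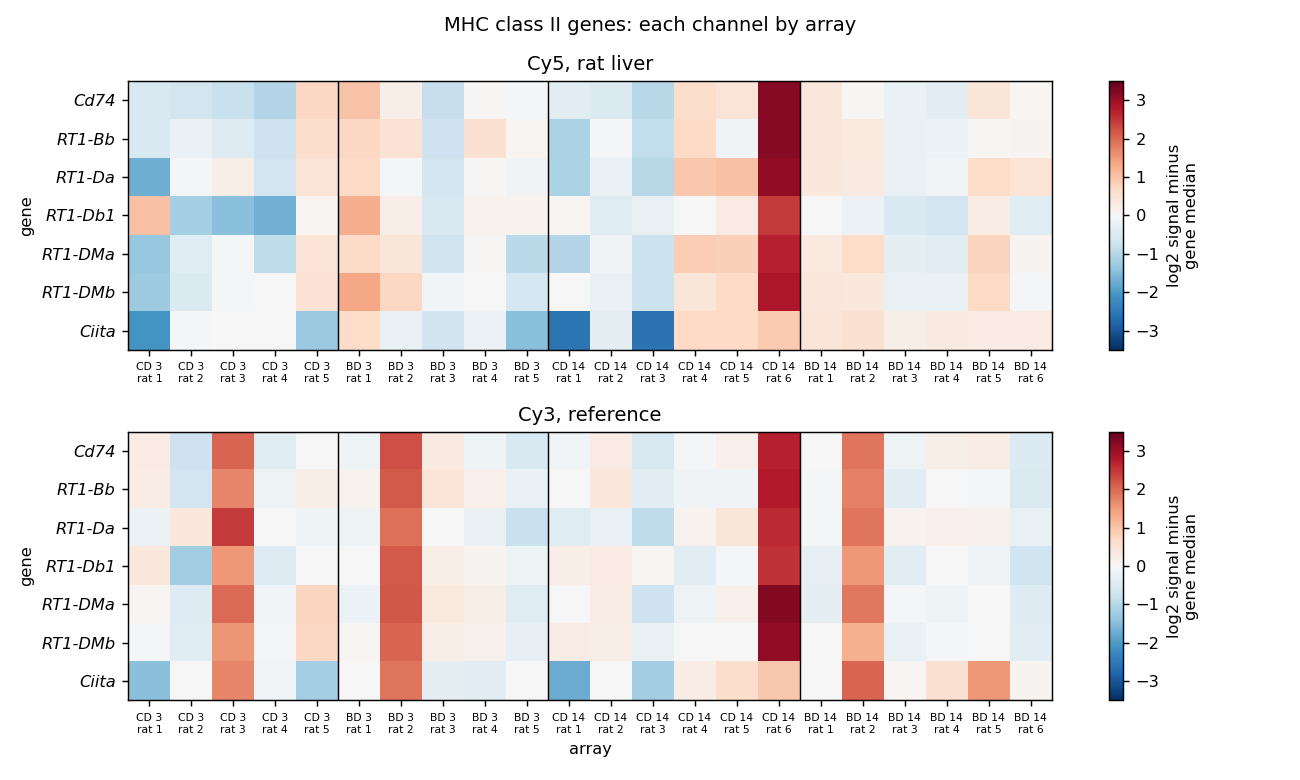
Quantile-normalized log2 signal of the 7 class II genes tested minus each gene's median, on 22 arrays (columns, grouped by CD 3, BD 3, CD 14 and BD 14), for the rat liver RNA in Cy5 (upper map) and the reference RNA in Cy3 (lower map). The lower map has 4 dark columns, and CD 14 rat 6 is dark in both.

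Markers of macrophages, as a list, rose in Cy3 on these arrays, and those of other leukocytes differed by list and by array. Of 12 Kupffer cell and macrophage markers fixed as a list, 11 were on the array and 9 were detected in Cy5 on all 22 arrays, and none was undetected throughout. The median Cy3 rise of the markers on the 4 arrays was 0.94, 1.29, 1.94 and 0.92, in the order given above. Their summed Cy3 signal, on a linear scale, was 49099 to 76420 on the 4 arrays, against a median of 27959 on the 18. In Cy5 the sum on CD 14 rat 6 was 71307, above the median of 19290 on the 18 arrays. The median Cy5 rise of these markers on the 4 arrays was -0.65, 0.15, 1.83 and 0.40, in the same order. Of 10 dendritic cell markers 1 was detected on all 22 arrays, as was 1 of 6 B cell markers. The rise of a gene in Cy3, as the median over the 4 arrays, was -0.038 to 1.32 for 9 dendritic cell markers. Batf3 was at 1.32, Cd86 at 1.22 and Cd83 at 1.05, while Itgax was at 0.18, Ccr7 at -0.014 and Cd80 at -0.038. This rise was -0.18 to 1.25 for the B cell markers, with Cd22 highest, -0.056 to 0.74 for 6 T cell markers and 1.28 for Ptprc, carried by all leukocytes. By array, in the same order, the median Cy3 rise of B cell markers was 0.50, 0.07, 1.10 and -0.09. For T cell markers it was -0.07, 0.31, 0.63 and -0.08. In Cy5 on CD 14 rat 6 all 6 T cell markers were raised, by 1.03 to 1.77. So were all 6 B cell markers, by 0.10 to 1.83, and Ptprc by 1.74. Of the 2 endothelial markers, Lyve1 rose by 1.47 and Clec4g by 0.02. The 4 bile duct markers rose by 0.11 to 2.88, with a median of 0.42 and Krt19 highest. Of 10 dendritic cell markers 7 were above 0, with a range of -3.63 (Cd80) to 1.70, a median of 0.47 and Batf3 at -0.13. Hepatocyte markers, which define the labelled tissue, were all detected on all arrays, and their median Cy5 difference on the 4 arrays was -0.05, -0.14, 0.45 and 0.02. In bulk tissue, fewer cells of a type and less RNA per cell cannot be told apart. The part of these cells in the class II values was not tested.

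Cd74 had log2 ratios of rat to reference of -0.91, -0.19, -3.19, -1.11 and 0.37 in CD 3 and of 0.91, -2.29, -1.40, -0.11 and 0.18 in BD 3. In CD 14 they were -0.51, -1.09, -0.66, 0.37, -0.03 and 0.13, and in BD 14 0.16, -2.10, -0.31, -0.83, -0.09 and 0.27. The lowest value of CD 3, BD 3 and BD 14 came from the arrays with bright Cy3, and the ranges of all groups overlapped. The mean of Cd74 was -1.01 ± 1.36 (SD, n = 5) for CD 3 and -0.54 ± 1.29 (SD, n = 5) for BD 3. At 14 months it was -0.30 ± 0.55 (SD, n = 6) for CD 14 rats and -0.49 ± 0.88 (SD, n = 6) for BD 14 rats.

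The chains of the presenting molecules followed the same rats. RT1-Da, the alpha chain of RT1-D, had log2 ratios of -0.85, -0.40, -2.29, -0.83 and 0.64 in CD 3, of 0.96, -1.95, -0.61, 0.30 and 0.64 in BD 3, of -0.38, 0.10, -0.05, 0.83, 0.61 and 0.54 in CD 14, and of 0.49, -1.55, -0.33, -0.23, 0.54 and 0.79 in BD 14. Apart from rat 3, the CD 3 rats lay within the range of BD 3, and the highest value of a group was 0.64 for CD 3, 0.96 for BD 3, 0.83 for CD 14 and 0.79 for BD 14. RT1-Db1, its beta chain, had 0.49, -0.04, -3.36, -1.73 and -0.05 in CD 3, 1.20, -2.06, -0.87, -0.12 and 0.18 in BD 3, -0.17, -0.83, -0.41, 0.22, 0.25 and -0.16 in CD 14, and 0.21, -1.87, -0.29, -0.76, 0.29 and 0.20 in BD 14. The CD 3 rats were the most spread, and their highest value was above every CD 14 rat although their mean was the lowest. RT1-Bb, the beta chain of RT1-B, had -0.82, 0.01, -2.81, -1.24 and -0.07 in CD 3, 0.19, -2.13, -1.63, -0.07 and -0.16 in BD 3, -1.16, -0.85, -0.89, 0.36, -0.53 and -0.01 in CD 14, and -0.01, -1.91, -0.32, -0.64, -0.38 and 0.11 in BD 14. In 4 of the 22 rats the RT1-Bb signal was above that of the reference, 1 rat in each group.

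The chains of DM, the peptide exchanger, were as mixed. RT1-DMa had -0.57, -0.11, -2.57, -1.31 and -0.48 in CD 3 and 0.70, -1.83, -1.23, -0.36 and -0.49 in BD 3. In CD 14 it had -0.56, -0.62, -0.07, 0.91, 0.46 and -0.64, and in BD 14 0.52, -1.39, -0.50, -0.46, 0.59 and 0.33. All CD 3 rats were below 0, while 1 of 5 BD 3 rats, 2 of 6 CD 14 rats and 3 of 6 BD 14 rats were above it. RT1-DMb was the least variable gene, with -0.68, -0.54, -2.24, -0.52 and -0.60 in CD 3, 0.94, -1.65, -0.70, -0.55 and -0.60 in BD 3, -0.31, -0.87, -0.65, -0.03, 0.24 and -0.61 in CD 14, and 0.03, -1.28, -0.46, -0.60, 0.29 and -0.15 in BD 14. Apart from rat 3, the CD 3 rats lay between -0.68 and -0.52.

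**Figure D2:**
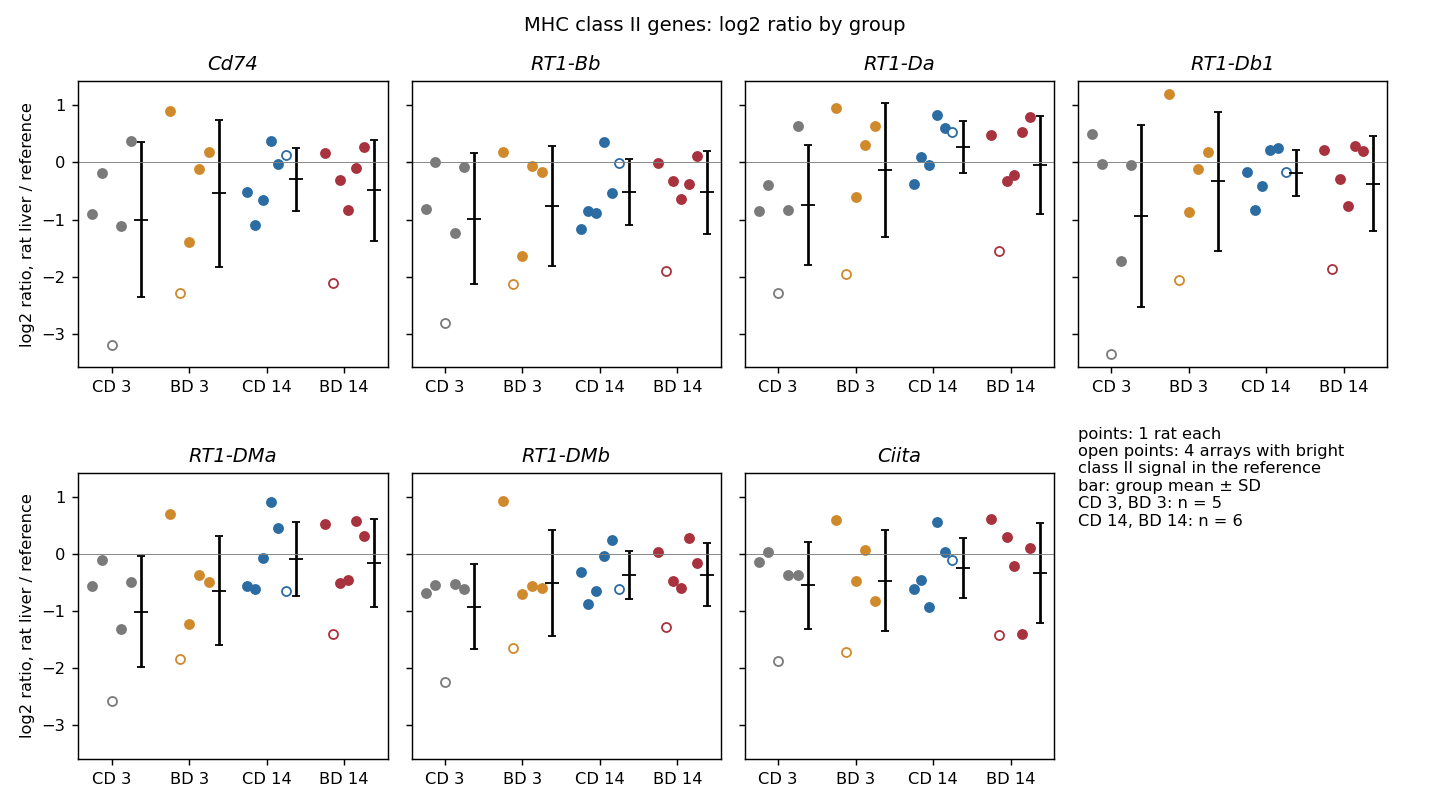
Log2 ratio of rat liver to reference for the 7 class II genes tested, 1 point per rat, with the mean and SD of each group (n = 5 in CD 3 and BD 3, n = 6 in CD 14 and BD 14). Open points are the 4 arrays with bright class II signal in Cy3, which hold the lowest value of CD 3, BD 3 and BD 14 in each panel. The groups overlap in every panel.

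No class II gene passed the test in any comparison. Each comparison was a contrast of the 4 group means fitted by limma, with Benjamini-Hochberg adjustment over the 19434 probes and a threshold of 0.05. Of the 7 genes tested, 0 were called in BD 3 against CD 3, BD 14 against CD 14, CD 14 against CD 3, BD 14 against BD 3 or the interaction of diet and time, and 0 also had an unadjusted p under 0.05. Among all probes tested the share called was 0% in each of these 5 comparisons. The share with an unadjusted p under 0.05 was 7.11% in BD 3 against CD 3, 4.6% in BD 14 against CD 14, 10.1% in CD 14 against CD 3, 7.44% in BD 14 against BD 3 and 4.8% in the interaction. The F test over the 4 groups called 0 of the 7 genes and 0.0257% of all probes, and 10.5% of all probes had an unadjusted p under 0.05 in it, with 0 of the 7. In all 28 pairs of groups, 4 for each gene, the ranges of the log2 ratio overlapped. Ranges that did not overlap were rare over all probes tested as well, at 0.756% in BD 3 against CD 3, 0.767% in BD 14 against CD 14, 0.515% between the control groups and 2.26% between the BASE-diet groups. In a fit without the 4 arrays of bright Cy3, an unadjusted p under 0.05 was reached by 0 of 7 class II genes, against 4.84% of all probes in BD 3 against CD 3, 2.8% in BD 14 against CD 14, 8.33% between the control groups and 5.08% between the BASE-diet groups.

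After 3 months, all 7 genes were on average higher in rats fed with BASE-diet than in control rats, with a median difference of 0.41 in log2 ratio against 0.03 over all probes tested. The difference of Cd74 was 0.47, with a 95% interval of -0.81 to 1.74 and an adjusted p of 0.921 by limma. RT1-Da had the highest difference, 0.61 (95% interval -0.50 to 1.73, adjusted p = 0.870 by limma), and Ciita the lowest, 0.08 (95% interval -0.88 to 1.04, adjusted p = 0.986 by limma). Every interval included 0. Leaving out CD 3 rat 3 alone moved the 7 differences to -0.25 to 0.23, with 2 of 7 positive and RT1-Da at 0.23, and leaving out BD 3 rat 2 alone moved them to 0.39 to 1.07. RT1-DMb (0.41) was 0.043 without BD 3 rat 1. Without the 4 arrays of bright Cy3 the differences were 0.06 to 0.68, and all 7 were again positive. Within the only slide that held both groups (1 CD 3 rat and 2 BD 3 rats) they were -0.93 to 0.35, with 3 of 7 positive. One of these BD 3 rats was rat 2, an array of bright Cy3, and without it the BD 3 rat was above the CD 3 rat in all 7 genes, by 0.70 to 1.82. With the slide as a block the differences were -0.56 to 0.27, with 4 of 7 positive.

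After 14 months, no class II gene passed the test between the diets. The median difference of BD 14 against CD 14 was -0.08 over the class II genes and 0.05 over all probes tested, with 6 of 7 genes lower. Cd74 differed by -0.19 (95% interval -1.35 to 0.97, adjusted p = 0.981 by limma) and RT1-Da by -0.32 (95% interval -1.34 to 0.69, adjusted p = 0.959 by limma). Leaving out BD 14 rat 2 alone gave -0.02 to 0.27, with 6 of 7 positive. Without the 4 arrays all 7 genes were positive, at 0.03 to 0.37, and with the slide as a block all 7 were negative, at -0.84 to -0.44. The slide block equals the difference within the slide that held 2 CD 14 rats and all 6 BD 14 rats. Without BD 14 rat 2, an array of bright Cy3, all 7 were still negative within that slide, at -0.59 to -0.16, with Cd74 at -0.33 in place of -0.66 and RT1-Bb at -0.16 in place of -0.44. None of the differences that were tested passed. The values within the slide without BD 14 rat 2 were not tested.

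Between control rats of 3 and 14 months, all 7 genes were on average higher at 14 months, with a median difference of 0.71 against 0.03 over all probes tested. RT1-Da had 1.02 (95% interval -0.05 to 2.09, unadjusted p = 0.060, adjusted p = 0.514 by limma) and RT1-DMa had 0.92 (95% interval -0.07 to 1.91, adjusted p = 0.530 by limma). Cd74 had 0.71 (95% interval -0.51 to 1.93, adjusted p = 0.734 by limma). Leaving out CD 3 rat 3 alone moved Cd74 to 0.16, RT1-Bb from 0.47 to 0.017, RT1-Db1 from 0.75 to 0.15, RT1-DMb from 0.55 to 0.21, Ciita from 0.30 to -0.037, RT1-Da to 0.64 and RT1-DMa to 0.53. Without the 4 arrays the differences were -0.08 to 0.64, with Cd74 at 0.08, RT1-Da at 0.58 and RT1-DMa at 0.64. The CD 3 rats are the control group of this comparison and of the diet comparison at 3 months. The slide with both groups held 1 rat of each, CD 3 rat 5 and CD 14 rat 6, which is an array of bright Cy3, and the differences there were -0.24 to 0.27, with 2 of 7 positive. With the slide as a block they were -0.60 to 0.16.

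Between rats fed with BASE-diet for 3 and 14 months, 6 of 7 genes were on average higher at 14 months, with differences from -0.04 for RT1-Db1 to 0.49 for RT1-DMa and a median of 0.13, against 0.07 over all probes tested. Leaving out BD 3 rat 2 alone gave -0.47 to 0.19, with 1 of 7 positive, and leaving out BD 14 rat 2 alone gave 0.26 to 0.74, with all 7 positive. No slide held both groups. With the slide as a block all 7 differences were negative, at -1.02 to -0.52. The interaction of diet and time was negative for all 7 genes, with a median of -0.43 and RT1-Da at -0.94 (95% interval -2.44 to 0.57, adjusted p = 0.999 by limma). Without CD 3 rat 3 the median was -0.063, with RT1-Da at -0.55, RT1-Bb at 0.22 and Ciita at 0.17, and without BD 3 rat 1 it was -0.098. RT1-Bb and Ciita were also positive without the 4 arrays, at 0.25 and 0.11.

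**Figure D3:**
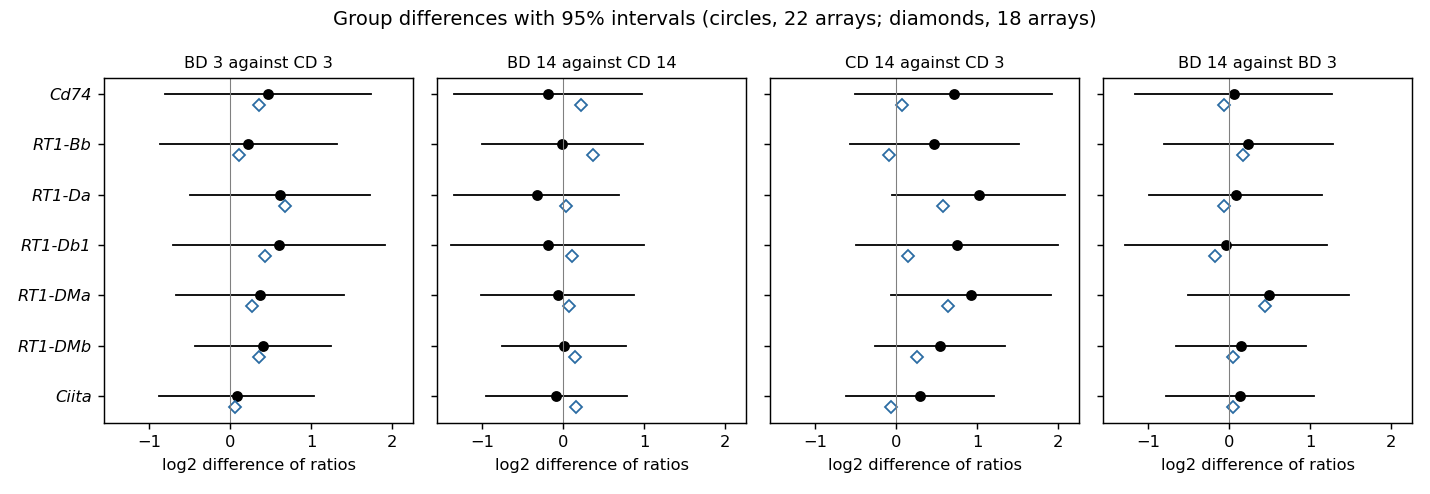
Differences in log2 ratio between groups for the 7 class II genes tested, with 95% intervals of the limma fit on all 22 arrays (circles and bars) and the differences without the 4 arrays of bright Cy3 (diamonds, 18 arrays). All 28 intervals include 0, and in BD 14 against CD 14 the diamonds of all 7 genes lie above 0.

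The ratios were also taken apart by channel. In Cy5 alone, quantile-normalized, the 7 genes were 0.29 to 0.89 higher in BD 3 than in CD 3 and 0.15 to 1.00 higher in CD 14 than in CD 3, and 0 of 7 had an unadjusted p under 0.05 in either. Leaving out CD 14 rat 6 lowered the differences between the control groups to between -0.13 (Ciita) and 0.58 (RT1-Db1), with Cd74 at 0.29, RT1-Bb at -0.025 and 5 of 7 positive. In BD 3 against CD 3, 5 of 7 were positive without CD 3 rat 1, with RT1-Da at -0.0042 and Ciita at -0.062. In Cy3 alone, where the same reference should give 0, the differences were -0.35 to 0.45 and -0.23 to 0.39 in the same comparisons. The first range became -0.80 to 0.04 without BD 3 rat 2, with 1 of 7 positive. The second became -0.70 to -0.02 without CD 14 rat 6, with 0 of 7 positive. Without CD 3 rat 3 all 7 were positive in both. RT1-Db1 differed in Cy5 by 0.89 (SE 0.52) in BD 3 against CD 3 and by 1.00 (SE 0.50) in CD 14 against CD 3, and in Cy3 by 0.42 and 0.39. These Cy3 values were -0.0036 without BD 3 rat 2 and -0.025 without CD 14 rat 6, and without CD 3 rat 2 they were 0.10 and 0.078.

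Over all 22 arrays the class II ratios were more spread within groups than those of most probes. The residual SD of the log2 ratio within groups was 1.04 for Cd74, above that of 95.1% of the probes tested, and 1.06 for RT1-Db1, above 95.8%. It was lowest for RT1-DMb, at 0.67, above 69.5%, and the median over all probes was 0.53. Much of this spread lay on the 4 arrays of bright Cy3, which were marked by the Cy3 signal of Cd74. A lower spread of Cd74, and of genes that follow it, was therefore built into leaving them out. Over the 18 others the SD of the ratio within groups was 0.67 for Cd74, above that of 69.7% of the probes, and 0.48 for RT1-DMb, above 43.5%, and the median over all probes was 0.52. In Cy5 alone over the 18 arrays it was 0.64 for Cd74 (above 51.2% of the probes), 0.57 for RT1-Bb (above 44.1%) and 1.08 for Ciita (above 85.8%), and the median over all probes was 0.63. In Cy3 alone it was 0.35 for Cd74, below the median of 0.42, against 1.05 over all 22 arrays. The choice of the arrays fixed this fall in advance. For Ciita the Cy3 value was 0.73 over the 18 arrays, above 84.9% of the probes, against 1.03 over all 22.

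Rats with a high Cd74 ratio were also high in most of the other class II genes. Over the 18 arrays, with each group's mean subtracted, the log2 ratio of Cd74 correlated with that of RT1-Bb at Pearson r = 0.90 (Spearman rho = 0.86) and of RT1-Da at r = 0.89 (rho = 0.88). It was r = 0.84 (rho = 0.81) for RT1-DMa, r = 0.77 (rho = 0.74) for RT1-Db1 and r = 0.68 (rho = 0.69) for RT1-DMb. These were 6 correlations on this scale, and by two-sided permutation tests with 100000 draws the p of r was 1e-05, the smallest that the draws can give, for RT1-Bb, RT1-Da and RT1-DMa, 0.00015 for RT1-Db1 and 0.0016 for RT1-DMb. For rho the permutation p was 2e-05, 1e-05, 9e-05, 0.0007 and 0.0017 in the order RT1-Bb, RT1-Da, RT1-DMa, RT1-Db1 and RT1-DMb. Ciita was the loosest, with r = 0.41 (permutation p = 0.089) and rho = 0.46 (permutation p = 0.056). Without the 2 arrays whose Cd74 value was farthest from the median, r was 0.85, 0.85, 0.77, 0.65, 0.53 and 0.29 in the order RT1-Bb, RT1-Da, RT1-DMa, RT1-Db1, RT1-DMb and Ciita. In Cy5 alone, r was 0.84, 0.79, 0.84, 0.64, 0.75 and 0.42 in that order, with a permutation p of at most 0.0041 for the first 5 genes and of 0.08 for Ciita. Genes on one array share its hybridization and dye normalization.

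**Figure D4:**
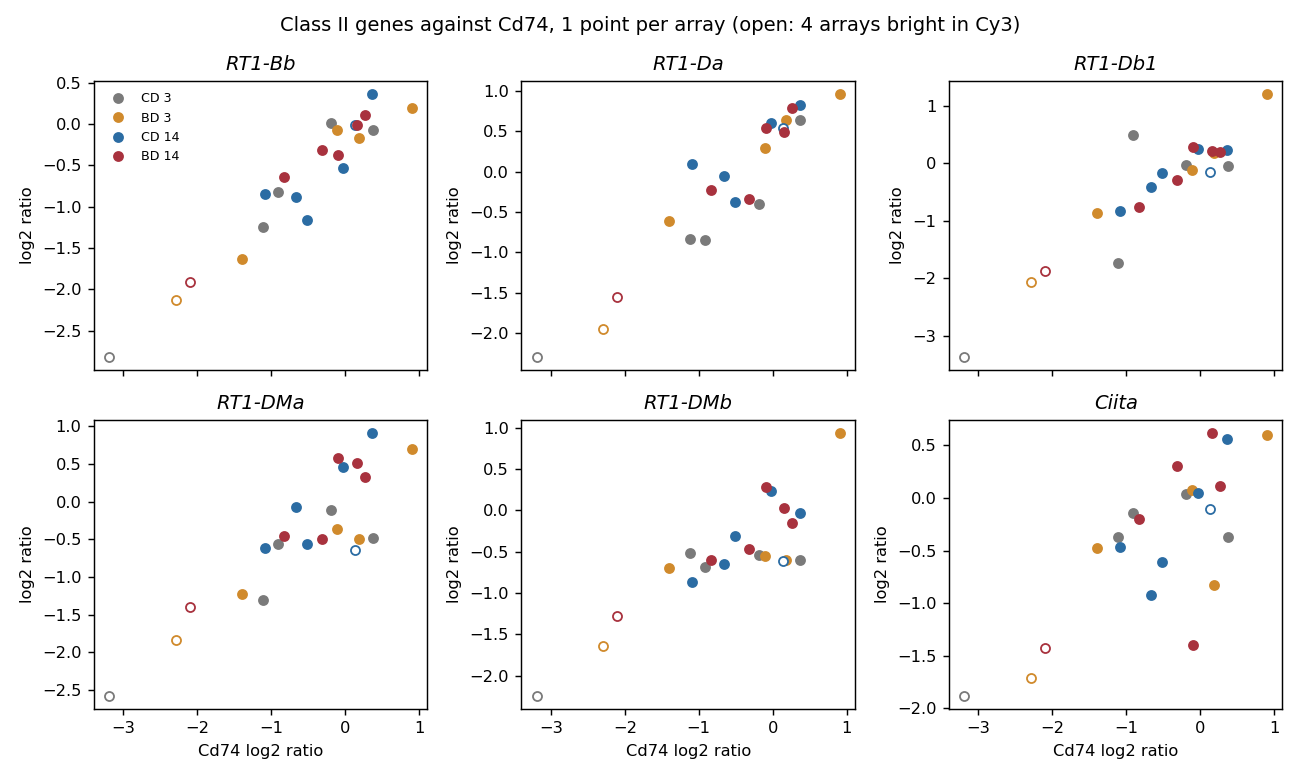
Log2 ratio of 6 class II genes (vertical axes) against that of Cd74 (horizontal axes), 1 point per array, coloured by group. Open points are the 4 arrays of bright Cy3, and 3 of them lie at the lower left end of each panel. RT1-Bb and RT1-Da follow Cd74 most closely and Ciita least.

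The 8 genes outside the set with the most similar pattern were ranked over all 22 arrays, by the Pearson r of the group-centred log2 ratio with the mean of the 7 class II genes, among 16520 genes. The first was the unnamed transcript TC588776 (r = 0.98), whose probe at chr18:56764968-56765027 on rn4 starts 500 bases from that of Cd74. LOC688090 followed (r = 0.93), and its probe has no position in the array's annotation. The others were Bcl2a1d (r = 0.91), a survival factor of leukocytes, Fcgr3a (r = 0.91), an Fc receptor of myeloid and natural killer cells, Fam26f (r = 0.89), Cd5l (r = 0.88), a secreted protein of macrophages, Cmtm7 (r = 0.87) and Ckb (r = 0.87), a creatine kinase. These r carry no p, since the genes were picked by them. The 4 arrays entered the ranking, and the median Cy3 signal of the 8 genes was 1.35 to 2.48 higher on them than on the 18 others. Over the 18 arrays alone r was 0.94 for TC588776, 0.89 for LOC688090, 0.80 for Bcl2a1d and Fcgr3a, 0.73 for Fam26f, 0.72 for Cmtm7, 0.68 for Cd5l and 0.62 for Ckb.

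RT1-Bb, the beta chain of RT1-B, had a pair of probes, of which the first was detected on all 22 arrays and the second on 8. The first probe, whose sequence is shown because it gave signal in every rat, had an open reading frame over its 60 bases.

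RT1-Bb, chr20:4732187-4732246 on rn4, minus strand: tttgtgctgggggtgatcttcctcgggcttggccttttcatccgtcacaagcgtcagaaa

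The second probe starts 1654 bases further along the gene and has a stop codon in all 3 frames. The log2 Cy5 signal of the first probe was 8.76 to 13.3 over all 22 arrays. The second probe gave 10.3 and 8.78 on BD 3 rats 1 and 3, 8.75, 8.78 and 9.58 on CD 14 rats 1, 3 and 5, and 9.501 on BD 14 rat 5. On the other 16 arrays it gave 1.195 to 5.48, and it was not well above background on 14 of them. There were thus 0 of 5 bright arrays in CD 3, 2 of 5 in BD 3, 3 of 6 in CD 14 and 1 of 6 in BD 14, and no value lay between 5.48 and 8.75. CD 14 rat 6, with the highest signal of the first probe (13.3), had 2.63 on the second, not well above background. In Cy3 the second probe reached 3.41 to 5.89 on the 6 bright arrays and 2.03 to 3.98 on the others, while the first probe was 9.40 to 13.3 throughout. The second probe was not tested, since it was detected on every array of no group.

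**Figure D5:**
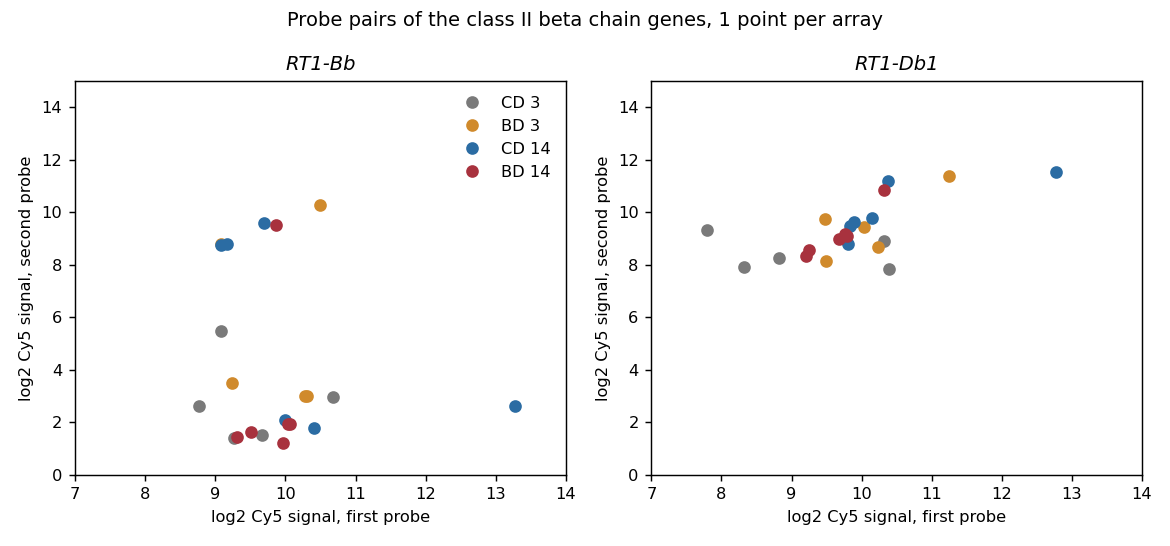
Log2 Cy5 signal of the second probe (vertical axis) against the first probe (horizontal axis) of RT1-Bb and RT1-Db1, 1 point per array, coloured by group. On the vertical axis the RT1-Bb points lie from 8.75 to 10.3 (6 arrays) or from 1.195 to 5.48 (16 arrays, 14 of them not well above background), while the RT1-Db1 points run from 7.84 to 11.5. Levels of different probes are not comparable.

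RT1-Db1, the beta chain of RT1-D, also had a pair of probes, both detected in every rat. Its first probe had an open frame and is shown for comparison with that of RT1-Bb.

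RT1-Db1, chr20:4672665-4672724 on rn4, minus strand: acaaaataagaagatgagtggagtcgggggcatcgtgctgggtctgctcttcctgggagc

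The second probe, with a stop codon in all 3 frames, had log2 Cy5 signals of 7.84 to 11.5. In the group comparisons the probes pointed the same way but by different amounts. BD 14 against CD 14 was -0.19 with the first probe and -0.97 with the second, and CD 14 against CD 3 was 0.75 and 1.31. The lowest adjusted p of the second probe was 0.614 by limma.

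RT1-Ba, the alpha chain of RT1-B, was near the floor of the array in most rats. Its probe, which has an open frame, is shown because the gene's partner RT1-Bb was bright on all arrays.

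RT1-Ba, chr20:4700973-4701032 on rn4, plus strand: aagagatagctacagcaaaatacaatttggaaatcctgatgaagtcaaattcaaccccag

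It was well above background in Cy5 on 4 arrays, CD 3 rat 1 (log2 signal 5.73), BD 3 rat 5 (3.20), CD 14 rat 1 (4.77) and CD 14 rat 3 (4.09). On CD 3 rat 4 it was not, at a log2 signal of 3.56. The 4 arrays were those with the largest share of all spots well above background in Cy5, 88.8% to 93.6%, against 52.4% to 77.0% on the 18 others. CD 3 rat 1 and CD 14 rat 1 were also the arrays with the most spots marked as non-uniform, 4.44% and 4.05%, against at most 0.063% elsewhere. The ratio was exactly 0, the software's entry where both channels hold a floor value, on 13 arrays. No difference between groups was therefore read for RT1-Ba. Its probe is the only member probe in the authors' deposited series table of 3017 entries. The paper gives that number as its total of differentially expressed genes.

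Ciita had log2 ratios of -0.14, 0.04, -1.88, -0.37 and -0.37 in CD 3 and 0.60, -1.71, -0.48, 0.08 and -0.82 in BD 3. In CD 14 they were -0.61, -0.46, -0.93, 0.56, 0.04 and -0.11, and in BD 14 0.62, -1.42, 0.30, -0.20, -1.40 and 0.11. In BD 14 against CD 14 the ratio of Ciita differed by -0.08 (95% interval -0.96 to 0.79). In single channels the difference was 0.88 (SE 0.57) in Cy5 and 0.90 (SE 0.56) in Cy3, and the value in Cy5 was 0.47 without CD 14 rat 1 and 0.47 without CD 14 rat 3. The value in Cy3 was 0.59 without CD 14 rat 1 and 0.69 without CD 14 rat 3. On these rats' arrays the quantile-normalized Cy5 signal was 2.57 and 2.55, against 4.78 to 6.04 on the other CD 14 arrays. Before that normalization it was 4.63 and 4.61, against 4.76 to 6.63. They had 90.6% and 88.8% of all spots well above background in Cy5. Each value above still holds the other of these arrays, and the difference without both was not computed.

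The upstream regulators of the pathway gave no call either. Of 17 genes for class II transcription and interferon gamma signalling, 13 were tested, and 0 passed the test in any comparison. Their median difference was 0.13 in BD 3 against CD 3, 0.08 in BD 14 against CD 14, 0.13 between the control groups and 0.22 between the BASE-diet groups. Jak2, a kinase bound to the interferon gamma receptor, had 0.66 in BD 14 against BD 3 (adjusted p = 0.640 by limma). Ifngr1, a receptor subunit, had 0.67 in CD 14 against CD 3 (adjusted p = 0.477 by limma). Ifng, the ligand, was detected in Cy5 on 0 arrays.

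Of 13 genes for peptide loading, invariant chain cleavage and turnover, 12 were tested and 0 passed the test. In CD 14 against CD 3, 10 of the 12 were on average higher, with a median of 0.33, and 3 had an unadjusted p under 0.05, as did 10.1% of all probes. These were Ctss, the cathepsin that trims Cd74, with 1.42 (95% interval 0.42 to 2.42, adjusted p = 0.310 by limma), Cst3, an inhibitor of cathepsins, with 0.59 (adjusted p = 0.380), and Lgmn, the asparaginyl endopeptidase, with 0.92 (adjusted p = 0.421). Without the 4 arrays, 1 of the 12 had an unadjusted p under 0.05, as did 8.33% of all probes in that fit. Cst3 had 0.61 in BD 3 against CD 3 (adjusted p = 0.586 by limma). RT1-DOb, a chain of the molecule that restrains DM, had 0.76 in BD 14 against CD 14 (adjusted p = 0.952 by limma) and 1.02 in BD 14 against BD 3 (adjusted p = 0.483 by limma).

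Markers of the cells that carry class II molecules differed by list. All 11 Kupffer cell and macrophage markers tested were on average higher in CD 14 than in CD 3, with a median of 1.19, and 8 had an unadjusted p under 0.05, as did 10.1% of all probes, while 0 passed the test. C1qc had 1.25 (95% interval 0.54 to 1.95, adjusted p = 0.201 by limma), C1qa 1.28 (adjusted p = 0.251) and Clec4f, a Kupffer cell lectin, 1.34 (adjusted p = 0.281). Without the 4 arrays the median was 0.82 and 5 of the 11 had an unadjusted p under 0.05, against the same 8.33% of all probes. In BD 3 against CD 3, 10 of 11 were higher, with a median of 0.69 and C1qc at 1.03 (adjusted p = 0.518 by limma), and in BD 14 against CD 14 the median was -0.13. In BD 14 against BD 3, 11 of 11 were on average higher, with a median of 0.24 and Cd14, a receptor for bacterial lipopolysaccharide, at 1.33 (95% interval 0.61 to 2.04, adjusted p = 0.284 by limma). The 7 dendritic cell markers tested had a median of -0.04 in BD 3 against CD 3 and 0.14 in CD 14 against CD 3. In BD 14 against CD 14 their median was 0.07, with 4 higher and 3 lower. There Ccr7 had 0.78 (adjusted p = 0.842 by limma) and Flt3 -0.42 (adjusted p = 0.952 by limma). The 3 B cell markers tested had medians of 0.11 and -0.08 in BD 3 against CD 3 and CD 14 against CD 3, and the 4 T cell markers 0.09 and 0.36. Ptprc, carried by all leukocytes, had 1.34 in CD 14 against CD 3. The 2 endothelial markers tested went apart in CD 14 against CD 3, with Lyve1 at 1.53 (95% interval 0.63 to 2.43, adjusted p = 0.226 by limma) and Clec4g at -0.09. The 3 bile duct markers had a median of 0.29 in that comparison. Of the red cell markers, Hbb had -1.19 and Alas2 -0.55 in BD 3 against CD 3 (adjusted p = 0.586 and 0.869 by limma), and 0.12 and 0.48 in CD 14 against CD 3. Hepatocyte markers had a median of 0.06 in BD 3 against CD 3, -0.17 in BD 14 against CD 14 and 0.25 in CD 14 against CD 3. The part of these cells in the class II differences was not tested.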

How the data were processed

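Liver RNA of 22 rats was measured on 22 Agilent 2-colour arrays, 1 per rat. Log10 ratios of Cy5 (rat) to Cy3 (common reference) and spot intensities were deposited by the authors as scanner output, with background subtracted and dyes normalized by Lowess in Agilent Feature Extraction 10.7.3.1, per the labels. The rat build rn4 stands in the file headers. The deposited series table holds log2 values of 3017 entries chosen by the authors, with scale and centring not given in the sources used here (set against the arrays, they behaved as log2 ratios less a constant of each probe). The paper gives the same number as its total of differentially expressed genes by ANOVA. Of the member probes the table held only that of RT1-Ba, and it served as an alternative. All its columns were matched to samples by name, and 18 of 22 correlated best with the array of that name.

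Ratios were taken to log2, spots flagged non-uniform were left out and spots of a probe were averaged. A total of 698 tested probes lacked a value on some array. Groups came from the labels, and the 4 group means were fitted by limma 3.58.1 in R 4.3.3, with Benjamini-Hochberg adjustment over 19434 probes. The fit was tested on simulated data. The methods' F test and Tukey's HSD were run as an alternative. For BD 3 rats 1 and 2, whose files carry older gene names, the newer names were used. Array data have no count depth, and the number of arrays limits the precision.

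All members were named, with up to 3 genes of the smallest p per list and comparison and the 8 genes most like the members. Not every such gene of a list is described. The values of 1 gene of a list are not reported here. The members and lists were chosen with earlier results of these data known. Slide and scan day coincided. Leaving out the 4 arrays of bright Cy3, or the 2 arrays of many non-uniform spots, was added after seeing the data, as were the interaction of each gene under the alternatives and single channels without single arrays or the 4 arrays, and spread and within-slide values without the 4. The other alternatives were median centring, normexp with loess, single channels, other filters and probes, array weights, slide and replicate blocks and leaving out each array.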

Additional observations from a re-analysis of the deposited data

Results flagged for a closer look

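Among 32 groups of 4 to 10 values, 3 held a rat whose gap to the next one was large for the range of its group (Dixon's criterion), and chance marks about 1 in 20 such groups. RT1-Bb had a log2 ratio of -1.91 in BD 14 rat 2. RT1-DMb had -2.24 in CD 3 rat 3, and Ciita had -1.88 in the same rat. Both rats are among the 4 arrays with bright class II signal in Cy3.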

How the results depend on the processing

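The absence of a call did not depend on the alternatives run. In each one that gave a value, 0 of the class II genes tested passed the adjusted threshold, and the lowest adjusted p by limma was 0.276, or 0.234 when 1 array was left out. The direction of the differences did change, for 59 of 550 log2 values in the alternatives other than leaving out 1 array. The cause was not tested. With the slide as a fixed block, the log2 difference turned in BD 3 against CD 3 to -0.56 (RT1-Db1), -0.16 (RT1-DMa) and -0.077 (Ciita), in BD 14 against CD 14 to -0.47 (RT1-DMb), in CD 14 against CD 3 to -0.17 (Cd74), -0.21 (RT1-Bb), -0.60 (RT1-Db1) and -0.18 (Ciita) and in BD 14 against BD 3 to -0.99 (Cd74), -0.70 (RT1-Bb), -1.02 (RT1-Da), -0.63 (RT1-DMa), -0.52 (RT1-DMb) and -0.74 (Ciita). With the slide as a random block, the log2 difference turned in BD 14 against CD 14 to -0.12 (RT1-DMb) and in BD 14 against BD 3 to -0.15 (Cd74), -0.11 (RT1-Da), -0.00749 (RT1-DMb) and -0.064 (Ciita). Without the 4 arrays of bright Cy3, the log2 difference turned in BD 14 against CD 14 to 0.22 (Cd74), 0.37 (RT1-Bb), 0.031 (RT1-Da), 0.12 (RT1-Db1), 0.070 (RT1-DMa) and 0.16 (Ciita), in CD 14 against CD 3 to -0.083 (RT1-Bb) and -0.065 (Ciita) in BD 14 against BD 3 to -0.059 (Cd74) and -0.068 (RT1-Da) and in the interaction to 0.25 (RT1-Bb) and 0.11 (Ciita). With array weights, the log2 difference turned in BD 14 against CD 14 to 0.15 (Cd74), 0.31 (RT1-Bb), 0.073 (RT1-Db1), 0.20 (RT1-DMa) and 0.24 (Ciita). In Cy5 alone, the log2 difference turned in BD 14 against CD 14 to -0.35 (RT1-DMb) and 0.88 (Ciita) in BD 14 against BD 3 to -0.032 (Cd74), -0.15 (RT1-Bb) and -0.13 (RT1-DMb) and in the interaction to 0.59 (Ciita). In Cy5 alone without the 4 arrays, it turned in BD 14 against CD 14 to 0.22 (Cd74), 0.30 (RT1-Bb), 0.30 (RT1-Da), 0.15 (RT1-DMa) and 1.13 (Ciita), in CD 14 against CD 3 to -0.074 (RT1-Bb), in BD 14 against BD 3 to -0.13 (RT1-Bb) and -0.063 (RT1-DMb) and in the interaction to 0.70 (Ciita). With normexp and loess, the log2 difference turned in BD 3 against CD 3 to -0.075 (Ciita), in BD 14 against CD 14 to 0.00778 (RT1-Bb) and 0.00744 (RT1-DMa) and in BD 14 against BD 3 to 0.031 (RT1-Db1). With median-centred arrays, the log2 difference turned in BD 14 against CD 14 to -0.053 (RT1-DMb) and in BD 14 against BD 3 to -0.00318 (Cd74). The replicate numbers did not pair the rats, since the deviations of 31 same-numbered pairs correlated at -0.27 to 0.29 (8 above 0.1), and the block called 0 genes. With the replicate number as a block, the log2 difference turned in BD 14 against BD 3 to -0.063 (Cd74) and -0.026 (RT1-Da). Leaving out 1 array at a time also changed signs, most often CD 3 rat 3 (5 genes in BD 3 against CD 3), BD 14 rat 2 (5 genes in BD 14 against CD 14) and BD 3 rat 2 (5 genes in BD 14 against BD 3), all among the 4 arrays of bright Cy3. In BD 3 against CD 3, values without 1 array ranged from -0.080 to 0.90 for Cd74, -0.23 to 0.57 for RT1-Bb, -0.00415 to 1.03 for RT1-Db1, -0.025 to 0.66 for RT1-DMa, 0.23 to 1.07 for RT1-Da, 0.043 to 0.69 for RT1-DMb and -0.25 to 0.39 for Ciita. In BD 14 against CD 14, values without 1 array ranged from -0.35 to 0.14 for Cd74, -0.14 to 0.27 for RT1-Bb, -0.32 to 0.11 for RT1-Db1, -0.22 to 0.18 for RT1-DMa, -0.12 to 0.19 for RT1-DMb, -0.49 to -0.022 for RT1-Da and -0.27 to 0.14 for Ciita. In CD 14 against CD 3, values without 1 array ranged from 0.16 to 1.05 for Cd74, 0.017 to 0.72 for RT1-Bb, 0.64 to 1.37 for RT1-Da, 0.15 to 1.11 for RT1-Db1, 0.53 to 1.15 for RT1-DMa, 0.21 to 0.65 for RT1-DMb and -0.037 to 0.44 for Ciita. In BD 14 against BD 3, values without 1 array ranged from -0.38 to 0.42 for Cd74, -0.11 to 0.51 for RT1-Bb, -0.37 to 0.39 for RT1-Da, -0.47 to 0.35 for RT1-Db1, -0.13 to 0.51 for RT1-DMb, 0.19 to 0.82 for RT1-DMa and -0.18 to 0.40 for Ciita. In the interaction, they ranged from -1.09 to -0.11 for Cd74, -0.58 to 0.22 for RT1-Bb, -1.39 to -0.55 for RT1-Da, -1.22 to -0.18 for RT1-Db1, -0.73 to -0.043 for RT1-DMa, -0.68 to -0.033 for RT1-DMb and -0.47 to 0.17 for Ciita. For RT1-Ba, near the floor, the group means of CD 3, BD 3, CD 14 and BD 14 were 0.59, 0.036, -0.14 and -0.25 (log2) from the scanner files and 0.75, 0.59, 0.43 and -0.47 in the authors' series table, whose values have a constant of each probe taken off, so that the zero differs. Most of the scanner values are 0 or close to the floor, and no difference is read from either. The strict filter gave no value for Ciita. The dim signals of RT1-Ba and of the second RT1-Bb probe limit what the ratio shows for them.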
